A study of Mus musculus with 9 samples.

Results

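The libraries described here were 6 of the 9 RNA sequencing libraries of the study, those made from retinae that the labels call normal, sorted by how much lens RNA they held. They were selected on the level of Cryaa, the gene of the lens protein alpha A crystallin, in CPM (the deposited count of a gene scaled to a library total of 1000000 counts). A library at 100 CPM of Cryaa or more was taken as holding lens transcripts. This put 3 libraries (wild type 2, wild type 3 and GFP 1) on the side with lens transcripts and 3 (wild type 1, GFP 2 and GFP 3) on the side without. The value just inside the threshold was 949 CPM in wild type 3, and the value just outside it was 9.48 CPM in GFP 2. Because the same counts chose the sides, every difference between them is given as a description with no test.

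The study sequenced polyadenylated RNA of whole mouse retina, with 2 retinae in each sample and 3 biological replicates per group. Wild type retinae came from mice at day 48 after birth, and rd10 retinae, labelled degenerated, from mice at day 61. The age of day 42 stands in the labels beside a line written Gg13, which was taken to be the GFP-expressing group because that group has no other age. The promoter and the cells that drive GFP, the sex of the mice and the dates of dissection are not stated in the labels. Age and genotype cannot be told apart between the labelled groups, but each side of the Cryaa split held libraries of both normal groups.

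The lens is a transparent organ in front of the retina, made of long fibre cells under a single epithelial layer and wrapped in a basement membrane, the lens capsule. Its fibre cells fill with crystallins, of which the alpha family acts as chaperones related to small heat shock proteins and the beta and gamma families pack densely to refract light. The neural retina is a separate tissue, although some crystallins, Cryab among them, are also transcribed in retinal cells. In bulk RNA from whole tissue, fewer cells of a type and less RNA per cell cannot be told apart.

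Totals of the 6 normal libraries ran from 9597635 to 11856196 counts, so 1 CPM stood for 9.60 to 11.9 counts. Of 21769 genes in the files, 13614 had a mean of at least 1 CPM over these libraries and were read. Libraries also differed by transcript length. Of 4 length classes, genes in the shortest deviated from their mean over the normal libraries by a median log2 of 0.25 in wild type 3 and 0.28 in GFP 2, against -0.22 to 0.02 in the other 4. Genes in the longest class deviated by 0.24 in wild type 1, 0.24 in GFP 1 and 0.08 in GFP 3, and by -0.10, -0.11 and -0.31 in wild type 2, wild type 3 and GFP 2. This trend crossed the split, with a median log2 ratio between the sides of 0.02 in the shortest class and -0.01 in the longest. Xist, the RNA that coats the inactive X chromosome, was at 659.5 CPM in wild type 2 and at most 1.88 CPM in the other 5.

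The transcripts that travelled with Cryaa were above all those of the lens itself. None of the listed genes of retinal neurons and glia was apart by 2-fold, near the shares over all genes read, 0.859% higher and 0.0661% lower. Cryaa was at 1922, 949 and 1877 CPM in the libraries with lens transcripts and at 1.15, 9.48 and 0.786 CPM in those without. The 16 genes of a crystallin list held 0.515% of all counts in wild type 2 (95% exact binomial interval 0.511% to 0.520%), 0.261% in wild type 3 (0.258% to 0.264%) and 0.456% in GFP 1 (0.452% to 0.459%). They held 0.00446%, 0.0129% and 0.00500% in wild type 1, GFP 2 and GFP 3. These intervals, and all floors given later, cover counting error only.

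A gene was counted as apart where the 3 libraries of one side did not overlap the 3 of the other and the ratio of mean CPM was at least 2. By this rule 117 genes were higher with Cryaa, 0.859% of those read, and 9 were lower, 0.0661%. Without a minimum ratio, 558 genes (4.1%) lay above and 318 (2.34%) below with no overlap. Of 40 genes in 3 lens lists, 33 were read, and 21 of them were apart and higher, which made 17.9% of all genes apart and higher. None of the 33 was lower, and 11 overlapped between the sides. The mean of 1 CPM was taken over both sides. Lens genes with no count without lens transcripts, such as Gja3 and Foxe3, were therefore read only through the side with them. The shares of lens genes read that were apart are for this reason a description and no separate support. The counts moved by more than 1.5 times without some libraries. Each left-out library raised both counts, and a lack of overlap is easier to meet with fewer libraries. Leaving out wild type 1 gave 179 higher and 17 lower, and leaving out GFP 3 gave 186 and 34. Leaving out wild type 2, wild type 3, GFP 1 or GFP 2 gave 139, 148, 155 and 169 higher and 30, 61, 28 and 30 lower. Without both wild type 3 and GFP 2, the counts were 166 and 58.

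**Figure D1:**
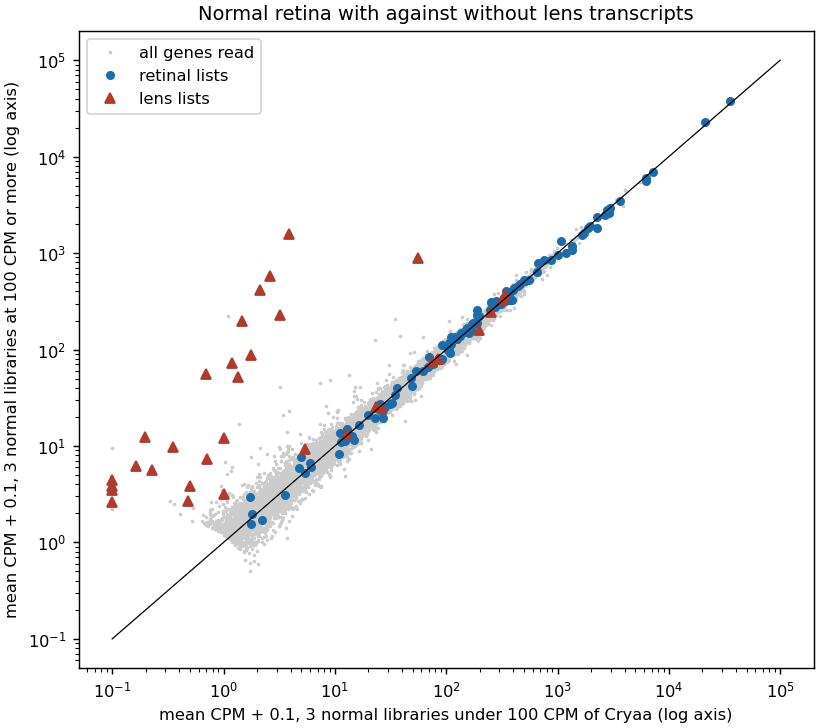
Mean CPM in the 3 normal libraries with lens transcripts (vertical, log axis, 0.1 added) against the mean in the 3 without (horizontal, log axis, 0.1 added), 1 point per gene read. Lens genes (triangles) rise up to 416-fold over the line of equal levels, while genes of retinal cell types (filled circles) lie along it.

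Among the alpha crystallins, Cryaa (chromosome 17, 31814890 to 31818669 on mm9, as in the deposited files) had a mean of 1583 ± 549 CPM with and 3.80 ± 4.92 CPM without lens transcripts (SD, n = 3 libraries each), a ratio of 416. This ratio rests on the 9.48 CPM of GFP 2, without which its log2 went from 8.70 to 10.68. Cryab, which encodes alpha B crystallin and is transcribed in many tissues, was at 1084, 644 and 937 CPM with and at 40.3, 80.0 and 47.2 CPM without. Its sides did not overlap either, but its ratio was 15.9, since the libraries without lens transcripts kept at least 40.3 CPM of it.

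The 6 beta crystallin genes of the list were all apart and higher, beside 0.859% of all genes read. Crybb2 was at 687, 435 and 629 CPM with and at 0.383, 6.88 and 0.262 CPM in wild type 1, GFP 2 and GFP 3. Cryba1, which encodes both the A1 and the A3 protein, was at 583, 231 and 439 CPM against 0.383, 5.42 and 0.262 CPM. Their ratios of mean CPM were 233 and 207. For Cryba2, Cryba4, Crybb1 and Crybb3 the ratios were 73.6, 93.5, 41.7 and 52.9, and the highest library without lens transcripts was GFP 2 for each of these beta genes. All 6 ratios were larger without GFP 2. The log2 ratio went from 7.86 to 10.82 for Crybb2, from 7.69 to 10.34 for Cryba1, from 6.20 to 8.79 for Cryba2 and from 5.72 to 8.32 for Crybb3. It went from 6.55 to 7.65 for Cryba4 and from 5.38 to 6.37 for Crybb1.

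Gamma crystallins split into genes that were apart and genes that were not. Crygs, the gamma crystallin of the mature lens, was at 264, 106 and 216 CPM with and at 0.670, 3.23 and 0.175 CPM without, a ratio of 144 (log2 7.17, and 8.85 without GFP 2). Crygn had 209 counts in all with and 2 without, a count ratio per library total of 98.2 (95% interval 26.9 to 816). Crygc was at 4.99, 2.49 and 3.80 CPM with and at 0.191, 0.834 and 0.175 CPM without. Crygb and Crygd, genes of the fibres laid down early in life, overlapped: Crygd was at 5.07, 0.996 and 3.12 CPM with, but at 2.71 CPM in GFP 2. Cryga, Cryge and Crygf stayed below the mean of 1 CPM. The genes Cryga to Crygf are close copies of one another, so how the counting treated reads with several matches could shift counts among them.

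**Figure D2:**
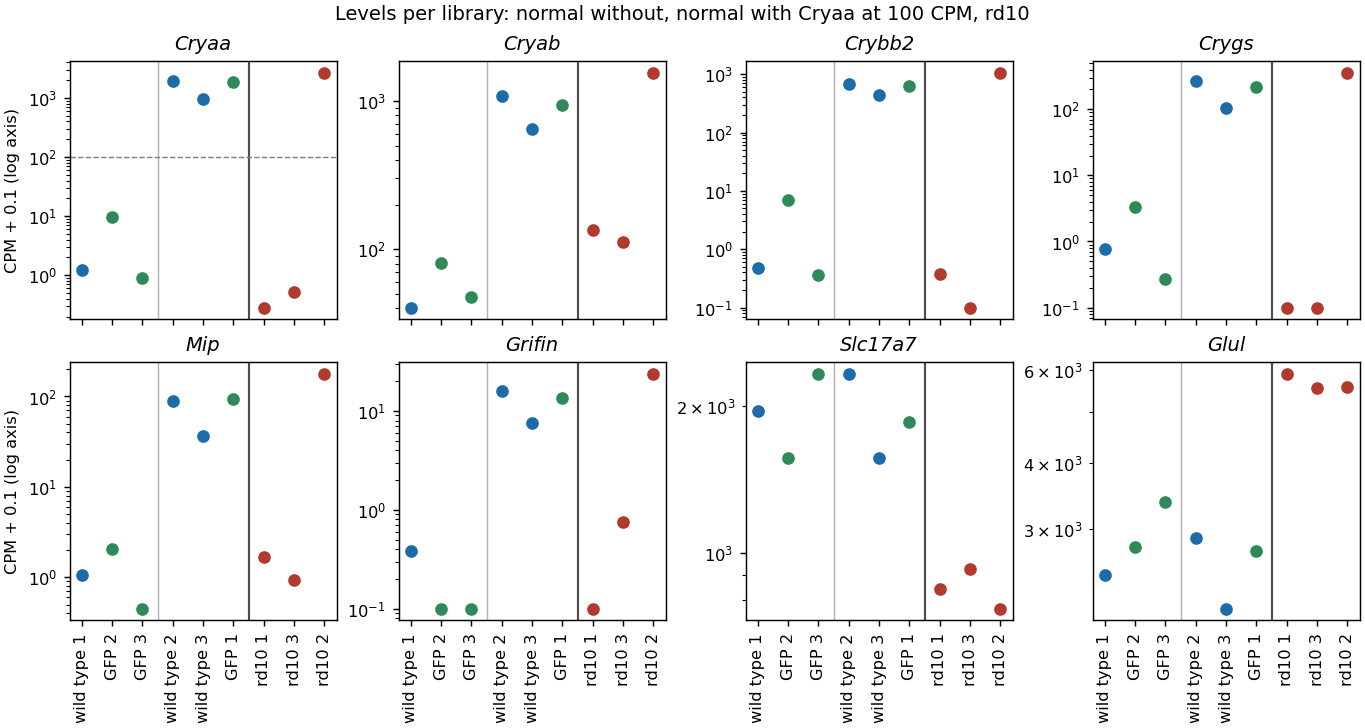
Levels of 6 lens genes and 2 retinal genes in each library, as CPM plus 0.1 on log axes, with the 3 normal libraries without lens transcripts at the left, the 3 with them in the middle and the rd10 libraries at the right (1 point per library, coloured by labelled group). Lens genes are high in wild type 2, wild type 3, GFP 1 and rd10 2, whereas Slc17a7, the vesicular glutamate transporter gene of photoreceptors, and Glul follow the labelled condition and not Cryaa. The dashed line in the Cryaa panel marks 100 CPM.

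Within libraries, the abundant crystallin genes stayed close to one proportion of Cryaa, and the rare Crygb and Crygd varied more. Counts are compared here between libraries for the same gene, with no correction for transcript length. Per 100 counts of Cryaa there were 13.7, 11.2 and 11.5 counts of Crygs in wild type 2, wild type 3 and GFP 1. For Cryba1 the same quantity was 30.4, 24.4 and 23.4, and for Crybb2 it was 35.7, 45.9 and 33.5. After the mean of the libraries without lens transcripts was subtracted from each gene, the highest over the lowest of these proportions was 1.24 for Crygs, 1.30 for Cryba1, 1.32 for Cryab and 1.37 for Crybb2. It was 1.54 for Cryba2, 1.48 for Crygn, 2.94 for Crygb and 22.0 for Crygd. The value for Crygd comes from the subtraction. Its mean without lens transcripts, 0.903 CPM, was all from GFP 2, and wild type 3 was at 0.996 CPM. Before subtraction, Crygd had 0.264, 0.105 and 0.166 counts per 100 of Cryaa, and Crygb 0.210, 0.105 and 0.144. Both genes had only 10 counts in wild type 3. Cryaa itself spanned 949 to 1922 CPM.

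By family, alpha crystallins held 58.3% to 61.8% of all crystallin counts in the 3 libraries, beta crystallins 33.0% to 36.1% and Crygs 4.05% to 5.12%. In wild type 1 and GFP 3 alpha crystallins held 92.9% and 96.0%, which was mostly the Cryab that those libraries kept. GFP 2 lay between, with 69.6% alpha and 22.9% beta. It held 4.86% of gamma A to F (60 counts), against at most 0.304% on the side with lens transcripts. Per 100 counts of Cryaa, GFP 2 had 28.6 counts of Crygd (26 counts against 91 of Cryaa), while wild type 2, wild type 3 and GFP 1 had 0.264, 0.105 and 0.166.

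**Figure D3:**
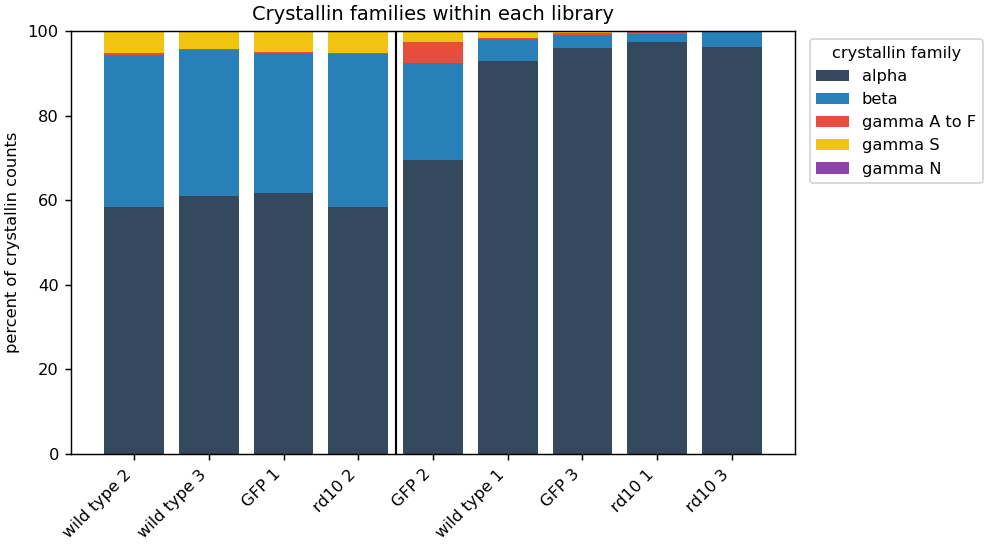
Share of all crystallin counts held by each family (stacked bars, percent) in each library. The 4 libraries left of the line, with Cryaa at 949 CPM or more, have alpha shares of 58.3% to 61.8%, and the gamma A to F band is widest in GFP 2, at 4.86%.

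Because these crystallins moved together, the 150 bases before the start of transcription are shown for 4 of them, chosen as the most abundant or best known of each family (RefSeq promoters, build GRCm38.p6). Capitals mark TGCTGA, the core of the site bound by Maf proteins, which are lens regulators. It was searched on both strands (reverse TCAGCA), was chosen with the data in view, and was not checked for overlap with other motifs. The windows are Cryaa at chr17:31677781-31677930 (plus strand), Cryba1 at chr11:77725294-77725443 (minus), Crybb2 at chr5:113070118-113070267 (minus) and Crygs at chr16:22811411-22811560 (minus).
Cryaa: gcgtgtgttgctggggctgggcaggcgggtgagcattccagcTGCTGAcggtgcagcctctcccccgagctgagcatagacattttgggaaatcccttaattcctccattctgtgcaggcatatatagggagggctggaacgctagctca
Cryba1: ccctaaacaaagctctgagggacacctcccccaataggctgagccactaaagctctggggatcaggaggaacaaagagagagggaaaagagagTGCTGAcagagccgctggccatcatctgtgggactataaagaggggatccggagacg
Crybb2: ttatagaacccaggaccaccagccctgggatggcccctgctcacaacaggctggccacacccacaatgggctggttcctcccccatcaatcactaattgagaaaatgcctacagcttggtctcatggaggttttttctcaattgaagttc
Crygs: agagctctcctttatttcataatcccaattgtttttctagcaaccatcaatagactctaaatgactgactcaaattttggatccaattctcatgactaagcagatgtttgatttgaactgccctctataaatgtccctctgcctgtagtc
Of 15 crystallin genes matched to the promoter table, 6 held these letters: Cryaa, Cryba1, Cryba2, Cryba4, Crybb1 and Crybb3. Of all 32851 promoters in the table, 10.1% held them in a window of the same length. The 6 crystallins with the letters were all apart and higher. Of those without them, Crybb2, Crygs, Crygc and Crygn were apart and higher, and Crygb and Crygd overlapped. Cryga, Cryge and Crygf, also without the letters, were below the mean of 1 CPM. A link between the letters and the split was not tested. A match is a description of letters and not a site of binding.

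Genes of lens fibre membranes and of the lens cytoskeleton were apart and higher in 8 of the 10 read from their list, beside 0.859% of all genes read. Gja3 and Lctl were among the 10 only through the side with lens transcripts. Mip, the water channel of fibre cells, was at 88.4, 36.3 and 93.1 CPM with and at 0.956, 1.98 and 0.349 CPM without, a ratio of 66.3 (log2 6.05, and 6.80 without GFP 2). Grifin, a lens galectin, was at 15.7, 7.37 and 13.5 CPM with, and had 3 counts in all on the other side. Lim2, another fibre membrane protein, was at 11.4, 5.58 and 12.1 CPM with and at most 0.349 CPM without. Over these 3 libraries Grifin and Lim2 tracked Cryaa closely, with a highest over lowest proportion of 1.13 and 1.12. With rd10 2 added, which also held lens transcripts, these values were 1.22 and 1.89.

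Bfsp1 and Bfsp2, which encode the beaded filament proteins of the fibre cytoskeleton, had ratios of 11.8 and 13.3, and the log2 ratio of Bfsp1 went from 3.56 to 4.65 without GFP 2. Gja3, a lens connexin, was at 4.82, 1.59 and 6.66 CPM with and had no count without, so it was at least 15.2-fold higher against a floor of 3 counts per library. Bfsp1 and Gja3 followed Cryaa less evenly than Grifin or Lim2, with highest over lowest proportions of 2.53 and 2.11. Lctl was at least 12.9-fold higher, but it overlaps Zwilch in the deposited coordinates, and the strand setting of the counting is not given in the sources used here. Caprin2 and Tdrd7, which the retina also expresses, overlapped between the sides, with log2 ratios of 0.12 and 0.05. Dnase2b, the nuclease of maturing fibres, had no count in any normal library, which allows up to 0.253 to 0.299 CPM in the libraries with lens transcripts.

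Of the 10 lens transcription factor genes read, 2 were apart and higher, beside 0.859% of all genes read. Those 2 were read only through the side with lens transcripts. Foxe3, a factor of the lens epithelium, was at 3.35, 1.10 and 5.82 CPM with and had no count without, at least 11.9-fold higher. The log2 of this bound went from 3.58 to 2.95 without GFP 1. Pitx3, needed for lens formation, was at 2.84, 1.79 and 3.04 CPM with and had no count without, at least 8.90-fold higher, and it overlaps Elovl3. Hsf4, a heat shock factor of the lens, lay above without overlap, at 7.48, 12.1 and 8.01 against 5.64, 3.96 and 6.37 CPM, a ratio of 1.72. Its highest library was wild type 3, which had the least Cryaa on that side. In rd10 2 Hsf4 was at 12.5 CPM, against 12.9 and 12.3 CPM in rd10 1 and rd10 3. Pax6, Six3, Sox2, Prox1, Maf, Meis1 and Mab21l1, which the list holds for their role in the lens and which retinal cells also express, all overlapped, with log2 ratios of -0.33 to 0.12. Pax6 was at 297, 405 and 404 CPM with and at 358, 319 and 341 CPM without.

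Outside the lens lists, 96 genes were apart and higher, 57 of them with a mean under 5 CPM even with lens transcripts and 64 of them with a ratio under 3. Among the 39 at 5 CPM or more, Wnt7b, a secreted Wnt ligand, had the highest ratio. It was at 11.5, 3.39 and 13.7 CPM with and had no count without, at least 33.2-fold higher. Aldh3a1, an aldehyde dehydrogenase abundant in the cornea, was at 24.4, 11.2 and 14.9 CPM with and at 1.63, 1.15 and 1.05 CPM without. Of the 9 genes in a cornea and conjunctiva list it was the only one with a mean of 1 CPM or more. The list summed to 12.9 to 26.7 CPM with and 1.75 to 2.19 CPM without, and Krt12, the keratin of the corneal epithelium, was at 0.598 to 0.928 CPM with and 0.287 to 1.04 CPM without. Krt14 had no count, and the part of cornea RNA in the result was not tested.

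Some genes of basement membranes were also apart. Nid1, the gene of the linker protein nidogen, was at 41.6, 8.77 and 71.9 CPM with and at 3.06, 3.54 and 2.79 CPM without, a ratio of 13.0 (log2 3.70, and 3.01 without GFP 1). Col4a1, a chain of the collagen of basement membranes, was at 215, 95.9 and 307 CPM with and at 40.1, 28.0 and 35.3 CPM without, a ratio of 5.98. Neither followed Cryaa evenly, since GFP 1 was the highest library for both while wild type 2 was the highest for Cryaa. In a list of 16 basement membrane genes chosen after their values were seen, Col4a1, Col4a2, Col4a6 and Nid1 were apart and higher, beside 0.859% of all genes read, and the other 12 overlapped. The median log2 ratio was 0.61, against 0.01 over all genes read. Col4a2, the chain that pairs with Col4a1, was at 135, 78.2 and 203 CPM with and at 52.7, 30.9 and 31.5 CPM without. Hspg2, the perlecan gene, was at 43.3, 9.86 and 92.9 CPM with and at 11.5, 2.29 and 12.8 CPM without, and it overlapped through wild type 3. The laminin gene Lamc1, by contrast, had a log2 ratio of 0.05 and overlapped.

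Several of the other genes with high ratios encode secreted factors, receptors or enzymes. Fgfr3, a receptor for fibroblast growth factors, was at 7.997, 2.69 and 9.62 CPM with and at 1.05, 0.521 and 1.22 CPM without. Of the 4 receptor genes of this family, a group chosen after the values were seen, Fgfr2 and Fgfr3 were apart and higher, beside 0.859% of all genes read. Fgfr1 lay above without overlap at a ratio of 1.37, and Fgfr4 had a log2 ratio of -0.07 and overlapped. Sfrp1, a secreted inhibitor of Wnt ligands, was at 24.9, 13.0 and 30.3 CPM against 5.16, 2.92 and 3.23 CPM.

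Nupr1, a small nuclear stress protein gene, was nearly level at 44.4, 45.3 and 45.6 CPM with, against 6.03, 6.04 and 9.52 CPM without. It did not scale with Cryaa, which was at 949 CPM in wild type 3 against 1922 and 1877 CPM in wild type 2 and GFP 1. R3hdml, Igfbp7 and Gstm2 had ratios of 6.25, 5.55 and 5.49, and the log2 ratio of Gstm2 went from 2.46 to 3.33 without GFP 3. Igfbp7 overlaps Polr2b and R3hdml overlaps 0610008F07Rik in the deposited coordinates, so their counts could hold reads of a neighbour.

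The genes outside the lens lists whose excess was most even per excess of Cryaa, among those at 5 CPM or more and over 3 libraries, were Cd24a, Igfbp7, Phgdh, Fam129a and Fgfr2. Their highest over lowest proportions were 1.06, 1.15, 1.21, 1.23 and 1.34. Cd24a, a cell surface glycoprotein gene, was at 64.1, 36.9 and 61.7 CPM with and at 9.66, 19.3 and 11.2 CPM without. Igfbp7, which encodes a secreted binding protein, was at 150, 90.5 and 139 CPM against 16.2, 33.1 and 19.0 CPM. Phgdh, the first enzyme of serine synthesis, was at 26.7, 16.3 and 23.3 CPM against 5.93, 8.02 and 11.8 CPM. These 3 genes shared the order of Cryaa (wild type 2, GFP 1, wild type 3), but they were picked for evenness over these libraries, so this is no separate result. In rd10 2 the excess of Phgdh over the other rd10 libraries was 0.378 per 100 of excess Cryaa. It was 0.947, 0.821 and 0.785 in wild type 2, wild type 3 and GFP 1. For Cd24a and Igfbp7 the rd10 2 values were 2.77 and 6.81, against 2.49 to 2.65 and 6.20 to 7.16.

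The rd10 libraries were not used to choose the sides of the normal libraries. By the same Cryaa threshold, 1 of them, rd10 2, also held lens transcripts. Cryaa is counted among the 117 and the 21 genes below, and its own place in rd10 was fixed by that threshold. Cryaa was at 2664 CPM in rd10 2 and at 0.184 and 0.412 CPM in rd10 1 and rd10 3, and the crystallin list held 0.721% of counts in rd10 2. Alpha crystallins held 58.4% of its crystallin counts, beta crystallins 36.2% and Crygs 4.96%, beside 58.3% to 61.8%, 33.0% to 36.1% and 4.05% to 5.12% in the normal libraries. Of the 117 genes apart and higher in normal retina, 88 (75.2%) were higher in rd10 2 than in both other rd10 libraries, against 36.1% of all genes read. At least 2-fold higher were 56 (47.9%), against 1.48% of all genes read. The 21 genes of the lens lists were all at least 2-fold higher in rd10 2, with a median log2 ratio of 5.37 when levels under the floor of 3 counts were set to it.

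Outside the lens lists, the share of genes also higher in rd10 2 was larger where the normal ratio was larger. All 17 genes with a ratio of 5 or more in normal retina were higher in rd10 2, as were 13 of 15 with a ratio of 3 to 5. With a ratio of 2 to 3 it was 37 of 64 (57.8%), beside 36.1% of all genes read. Nid1 was at 67.9 CPM in rd10 2 and at 3.59 and 3.79 CPM in rd10 1 and rd10 3. Wnt7b was at 14.5 CPM against 0 and 0.412 CPM. Col4a1 was at 268 CPM against 58.4 and 68.6 CPM.

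Not every difference had the same direction or ratio in rd10. Fam129a, even with Cryaa in normal retina, was at 29.99 CPM in rd10 2 and at 34.8 and 45.6 CPM in the other rd10 libraries. Nupr1 was at 85.1 CPM in rd10 2 against 40.1 and 40.6 CPM, a ratio of 2.11 beside 6.27 in normal retina. The rd10 comparison has 1 library on one side, so it has no replicate check.

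**Figure D4:**
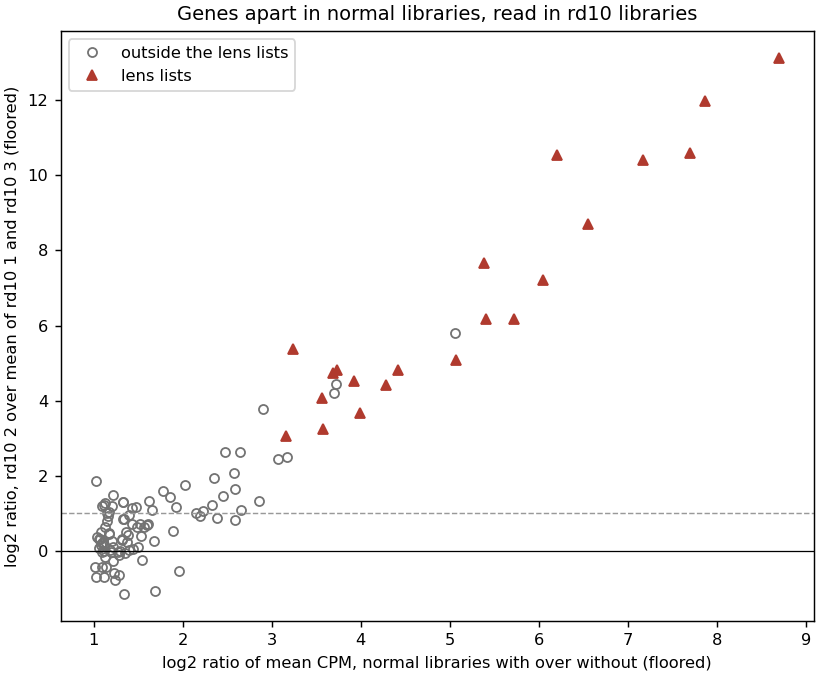
Log2 ratio of rd10 2 over the mean of rd10 1 and rd10 3 (vertical) against the log2 ratio between normal libraries with and without lens transcripts (horizontal), for the 117 genes apart and higher in normal retina. Levels under 3 counts per library were set to that floor. All 21 lens genes (triangles) lie above the dashed line of a 2-fold difference, among them Cryaa, which chose the sides. Genes outside the lens lists (open circles) with normal ratios of 2 to 3 lie on both sides of 0. Their median is 0.30, against 0.03 over all genes read.

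Genes of retinal cell types differed little between the sides. Of 114 genes read in lists of rods, cones, bipolar, horizontal, amacrine and ganglion cells, Müller glia and ribbon synapses, none was apart in either direction. That is near the shares over all genes read, 0.859% higher and 0.0661% lower, so it does not set these genes apart from the rest. Without a minimum ratio, 6 (5.26%) lay above and 4 (3.51%) below, close to the shares over all genes read, 4.1% and 2.34%. Their median log2 ratio was -0.02, with a range of -0.49 to 0.82, against 0.01 over all genes.

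Rods, the main cell type by number in mouse retina, gave sums over 19 genes of 97296 to 118927 CPM with and 97226 to 109547 CPM without. Cnga1, a subunit of the rod cyclic nucleotide channel, had the lowest log2 ratio of the list, -0.35, yet overlapped because only GFP 2 was high, at 1913 CPM. No rod gene was without overlap between the sides, beside 4.1% above and 2.34% below over all genes read.

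In cones, Opn1sw, the short wavelength opsin gene, was at 418, 538 and 353 CPM with and at 433, 378 and 413 CPM without. Pde6c, the cone phosphodiesterase, had a log2 ratio of 0.30 and overlapped. Among bipolar genes, Prkca, the kinase that marks rod bipolar cells, had a log2 ratio of -0.09 and overlapped. Cabp5, a calcium binding protein of bipolar cells, lay below without overlap, at 79.7, 81.8 and 70.7 CPM against 84.6, 104 and 82.1 CPM. That difference was small, with a ratio of 0.857.

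In horizontal cells Calb1 (calbindin) had a log2 ratio of -0.08 and in amacrine cells Calb2 (calretinin) had one of 0.00385, and both overlapped. Neurod2, a factor of some amacrine cells, had the lowest log2 ratio of the retinal lists, -0.49, at 15.4, 23.2 and 19.4 CPM with and at 24.6, 35.1 and 21.9 CPM without. Glul, the glutamine synthetase of Müller glia, was at 2889, 2125 and 2725 CPM with and at 2457, 2776 and 3383 CPM without. Neither gene separated the sides.

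Ganglion cell genes were the retinal list with the most genes without overlap, 4 of 16 above and none below, beside 4.1% and 2.34% of all genes read, with a median log2 ratio of 0.12. Opn4, the melanopsin gene of light sensitive ganglion cells, was at 8.86, 7.97 and 6.16 CPM with and at 4.30, 4.48 and 5.76 CPM without. The other 3 were Pou4f3, Thy1 and Tubb3, named here after their values were seen. None of the 4 reached a ratio of 2, and Nefl, the most abundant gene of the list, overlapped with a log2 ratio of 0.21.

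Genes of proteins called crystallins for their history but found outside the mouse lens were read as well. Of Crym, Cryz, Cryl1, Cryzl1 and Crybg3, none was without overlap, near the shares over all genes read, 4.1% above and 2.34% below. Their median log2 ratio was -0.09. Lists of ribosomal proteins, the respiratory chain and heat shock also had no gene without overlap, beside the same shares, with medians of -0.04, -0.04 and -0.11. Among the 1000 genes of highest mean CPM, the only ones apart were Cryaa, Cryab, Crybb2 and Cryba1, all higher, beside 0.859% of all genes read. That mean was taken over both sides, so Cryaa, Crybb2 and Cryba1 were among the 1000 through the side with lens transcripts.

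**Figure D5:**
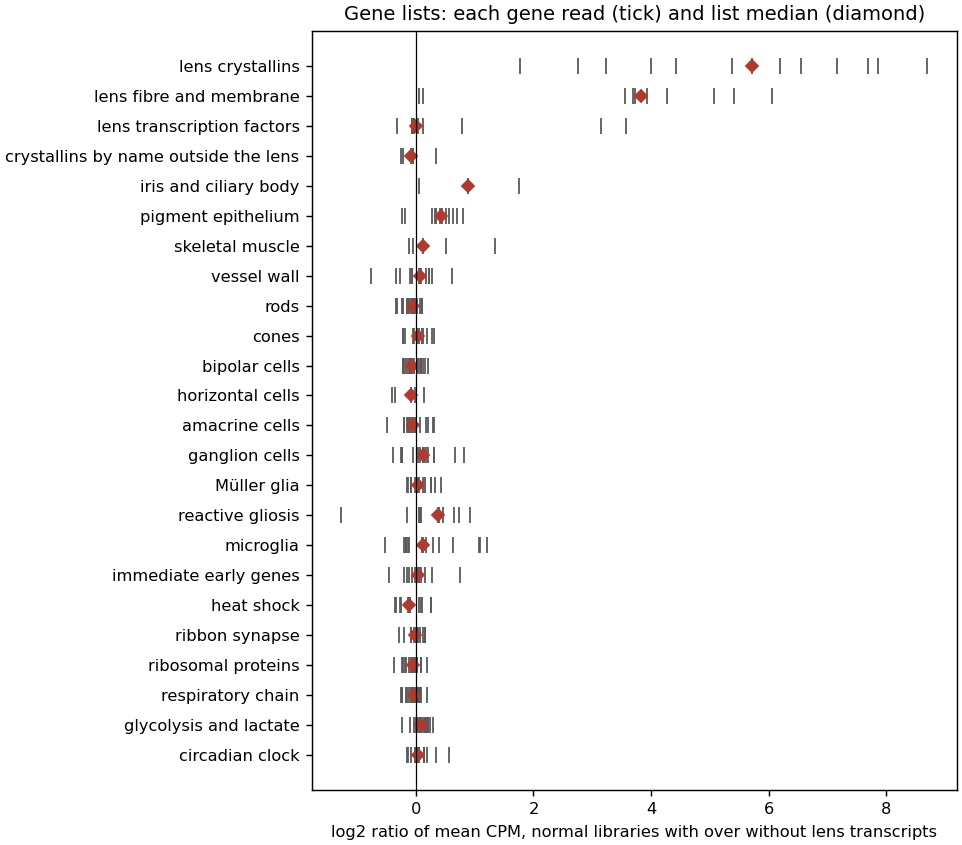
Log2 ratio of mean CPM between normal libraries with and without lens transcripts for each gene read (ticks) and the median (diamonds) of each list. The crystallin and lens fibre medians stand at 5.72 and 3.83, and the retinal lists centre near 0.

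Markers of other tissues of the eye were read beside these values. Of 12 pigment epithelium genes read, 5 (Lrat, Rpe65, Slc16a8, Stra6 and Tyrp1) lay above without overlap, beside 4.1% of all genes read. None was apart by the 2-fold rule, and the median log2 ratio was 0.43. Tyrp1, a pigment enzyme gene, was at 18.0, 12.1 and 9.87 CPM with and at 6.60, 7.29 and 8.90 CPM without. The summed level of the list overlapped, at 353 to 613 CPM with and 229 to 503 CPM without. The part of pigment epithelium RNA in the other differences was not tested.

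For iris and ciliary body, 3 genes were read, with a median log2 ratio of 0.89 and all overlapping. Optc, which encodes opticin of the vitreous, was at 46.1, 58.3 and 29.3 CPM with and at 15.1, 17.1 and 39.8 CPM without. Of 14 vessel wall genes, 1 lay above without overlap, beside 4.1% of all genes read, and the median was 0.06. Of 5 skeletal muscle genes read, 2 lay above without overlap, beside the same 4.1%. Only Actn3 was apart and higher, beside 0.859% of all genes read. In rd10 2, Actn3 was at 0.378 CPM, against 1.10 and 0.576 CPM in rd10 1 and rd10 3. Myh1, Myh2, Myh4 and Tnnt3 had no count in the normal libraries, and the globin genes Hbb-b1 and Hbb-b2 of blood had none either. Reactive gliosis genes had a median log2 ratio of 0.38, with 2 of 11 above without overlap, again beside 4.1%. C4b, a complement gene in that list, was at 16.4, 12.7 and 6.24 CPM with and at 8.03, 3.02 and 7.68 CPM without, and so overlapped.

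The 9 genes apart and lower were all rare. Their highest level in any normal library was 4.69 CPM, and their ratios ran from 0.255 to 0.495. Among them were Slc19a3, St8sia4, Rel, Wnt9a, D630003M21Rik, Gm12657, 1700008O03Rik and S1pr2, and none of the 9 belonged to a retinal list. St8sia4, a sialyltransferase gene, was at 0.946, 0.199 and 0.759 CPM with and at 1.91, 1.46 and 1.92 CPM without. In rd10 2, which held lens transcripts, 4 of the 9 were higher than in both other rd10 libraries and 1 was lower, beside 36.1% and 29.4% of all genes read.

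The labelled groups were compared by a test that did not use Cryaa. GFP-expressing against wild type retina, with 3 libraries each, had 0 genes higher (0% of 14300 tested) and 0 lower (0%) at an adjusted p under 0.05 by edgeR's quasi-likelihood test, and 214 genes at an unadjusted p under 0.05. DESeq2 called 0 higher and 1 lower, with 283 at an unadjusted p under 0.05. Without GFP 3, edgeR called 4 genes higher. With log2 Cryaa CPM as a covariate, edgeR called none, with 150 at an unadjusted p under 0.05. No lens gene passed the test. Cryaa had a log2 difference, GFP minus wild type, of -0.61 and Crybb2 one of -0.82, each with an adjusted p of 1 by edgeR. Nid1 had 0.53, also with an adjusted p of 1. Each labelled group held libraries of both kinds, and the levels of these genes spread widely within each group.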

How the data were processed

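The authors deposited 1 table per library with raw counts per gene on the mouse build mm9, per the submitters' processing notes; all values were whole numbers. The aligner, the counting program, the annotation and the strand setting are not given in the sources used here. Counts were divided by the library total to give CPM (Python 3.11.15, pandas 2.3.3). The members, the gene lists and the named genes were chosen with earlier results of these data known. Named genes were all lens genes, the 10 highest and 10 lowest ratios outside the lens lists at 5 CPM or more (no lower gene reached that level, so the lower genes are named in their place, after their values were seen), the most abundant and most different gene of each other list, and the 5 genes most even with Cryaa; some genes chosen by these rules are left out. Levels under 3 counts per library were set to that floor in ratios. GFP-expressing was compared with wild type in edgeR 4.0.16 (R 4.3.3) over all 9 libraries with 1 mean per group, filterByExpr (minimum count 10, minimum total 15), TMM scaling and Benjamini-Hochberg adjustment, with DESeq2 1.42.0 as an alternative. Both procedures were tested on simulated data. Replicate libraries differed by more than sampling noise. Transcript lengths, matched for 90.5% of genes read, came from GENCODE on GRCm38 and were used only to sort genes into 4 length classes. Starts have 1 added. Alternatives were scaling, level and ratio minimums, the Cryaa threshold, left-out libraries and each labelled group alone.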

Additional observations from a re-analysis of the deposited data

Results flagged for a closer look

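For 16 of the named genes, the libraries with lens transcripts lay on one side of those without in wild type retina and on the opposite side in GFP-expressing retina. These differences were not tested, and the share of such genes among all genes read is not given here. Each labelled group has only 1 library on one of its sides, so such an order needs just 1 library outside the range of 2 others. The genes are therefore listed as a description only. Given as the log2 ratio in GFP minus that in wild type, the difference was 1.75 for Prox1, 1.16 for Kdr, 1.09 for Prkca, 0.65 for Caprin2 and 0.58 for Stat3. It was -2.20 for Ttr, -1.90 for Rps27a, -1.26 for Ndufb5, -1.09 for Cabp4, -0.97 for Rpl4, -0.94 for Cnga1 and -0.89 for Hsp90aa1. It was -0.73 for Atp5b, -0.65 for Calb2, -0.63 for Cryzl1 and -0.46 for Calb1. Genes of the shortest length class were highest in wild type 3 and GFP 2, which stand on opposite sides of the Cryaa split, and the part of transcript length in these values was not tested.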

How the results depend on the processing

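The counts of genes apart depended on the thresholds. With a mean of at least 5 CPM, 42 genes were higher and 0 lower, and with no minimum 33 were lower. A ratio of 1.5 gave 233 higher and 42 lower, and a ratio of 4 gave 42 and 0. Wild type libraries alone gave 476 and 297, and GFP libraries alone 512 and 423, with 74 genes higher and 6 lower in both. A lack of overlap is easier to meet with fewer libraries, so these counts and those with libraries left out are not on the same footing as the main ones. Leaving out 1 library gave 139 to 186 higher and 17 to 61 lower. Without wild type 3 and GFP 2, an alternative added after seeing the data, 58 were lower. The other scalings stayed within 1.5 times of both counts. Thresholds of 20 and 500 CPM of Cryaa give the same sides, since no normal library lies between them and 100 CPM, and so check nothing. The share of higher genes also higher in rd10 2 was 90.5% at 5 CPM or more and 100% at a ratio of 4. GFP against wild type had 0 to 4 genes higher and 0 lower when 1 library was left out, and DESeq2 called 1 lower. The replicate numbers did not pair the samples (correlations of same-numbered deviations of 0.22, -0.19 and -0.48), and a fit with the replicate number as a block called 0 higher and 0 lower, with 163 genes at an unadjusted p under 0.05. Of 490 values of 35 named genes under alternatives, 32 moved by more than the spread and 0 reversed. These genes were chosen as higher without overlap, so leaving out libraries could not reverse them. The Cryaa thresholds of 20 and 500 CPM only repeated the main values. The 0 is therefore no check of direction for those alternatives. At these depths 1 CPM stands for 9.60 to 11.9 counts.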

Other observations

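Not all genes higher with Cryaa kept one proportion to it across libraries. Per 100 units of excess Cryaa, the excess of Nid1 was 2.01 in wild type 2, 0.60 in wild type 3 and 3.67 in GFP 1, a 6.15-fold range. Foxe3 ranged 2.68-fold over the same libraries. Grifin and Lim2 ranged only 1.13-fold and 1.12-fold there, but Lim2 had 0.334 counts per 100 of Cryaa in rd10 2. In wild type 2, wild type 3 and GFP 1 it had 0.591, 0.588 and 0.643. In rd10 2 Mip had 6.65 counts per 100 of Cryaa, above the 4.60, 3.82 and 4.96 in wild type 2, wild type 3 and GFP 1.

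GFP 2, on the side without lens transcripts, held small numbers of most crystallin transcripts: 91 counts of Cryaa, 66 of Crybb2, 52 of Cryba1, 79 of Cryba2 and 31 of Crygs. It also held 19 counts of Mip, 12 of Bfsp1 and 11 of Bfsp2.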
